A study of Mus musculus with 13 samples.

Results

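A set of 6 genes of receptor-mediated protein uptake in the proximal tubule of the kidney was followed in RNA from whole mouse kidney. They are Lrp2 (megalin), Cubn (cubilin), Amn (amnionless), Dab2, Clcn5 and Ocrl, chosen by gene name, and they make up 6 of the 34745 genes listed. All 6 passed the filter on low counts, which left 15703 genes for testing. The mice were DsbA-L knockouts (KO) given LPS (3 mice), wild types (WT) given LPS (4), KO given saline (3) and WT given saline (3). DsbA-L is a disulfide-bond oxidoreductase-like protein encoded by Gstk1. LPS is bacterial lipopolysaccharide, injected into the peritoneum at 10 mg/kg to cause acute kidney injury, and the saline mice had 200 µL of saline by the same route. How the knockout was made, in which cells it acts, the strain, the age and sex of the mice and the time from injection to sampling are not given in the labels.

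Megalin is a very large receptor of the LDL receptor family on the brush border of proximal tubule cells. Together with cubilin it binds albumin, vitamin carriers, hormones and small proteins that pass the glomerular filter, and carries them into the cell through clathrin-coated pits. Cubilin has no membrane anchor of its own and reaches the surface in a complex with amnionless. Dab2 is an adaptor that links the tail of megalin to clathrin, ClC-5 (Clcn5) is a chloride/proton exchanger of early endosomes, and OCRL is a phosphoinositide phosphatase of coated pits and endosomes. In humans, loss of CLCN5 or OCRL causes Dent disease, and loss of OCRL also Lowe syndrome, both with protein in the urine.

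On GRCm38, Lrp2 (ENSMUSG00000027070) lies on chromosome 2 from 69424340 to 69586065 on the minus strand. Cubn (ENSMUSG00000026726) lies on the same chromosome from 13276338 to 13491813, also on the minus strand. Amn (ENSMUSG00000021278) lies on chromosome 12 from 111271111 to 111276426 and Dab2 (ENSMUSG00000022150) on chromosome 15 from 6299788 to 6440712, both on the plus strand. Clcn5 (ENSMUSG00000004317, minus strand, 7153810 to 7319358) and Ocrl (ENSMUSG00000001173, plus strand, 47912387 to 47965868) are both on chromosome X. All 6 are protein coding. Gm13270 overlaps Cubn on the other strand and had 3 to 24 counts in a library, and Gm16311, antisense to Dab2, had 0 to 3, against at least 418 counts for Cubn and 3268 for Dab2. The strand setting of the counting is not given in the labels, so reads of these overlapping genes cannot be told apart from those of Cubn and Dab2.

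Promoter sequence is shown for 4 of the genes: both receptors, which moved together under LPS, amnionless, the partner of cubilin whose level did not follow it, and Clcn5, which differed between the genotypes under LPS. The bases come from the 250 bases before the RefSeq transcription start on GRCm38.p6 and run 5′ to 3′ on the strand of the gene. Bases that lie inside the deposited gene model were left out, which cut the Lrp2 stretch to 214 bases ending at that model. The outer stretches of Dab2 and Ocrl, searched below, were cut in the same way. Capitals mark CpG dinucleotides. Lrp2 is shown from chr2:69586066-69586279, Cubn from chr2:13491877-13492126, Amn from chr12:111270846-111271095 and Clcn5 from chrX:7319359-7319608.
Lrp2: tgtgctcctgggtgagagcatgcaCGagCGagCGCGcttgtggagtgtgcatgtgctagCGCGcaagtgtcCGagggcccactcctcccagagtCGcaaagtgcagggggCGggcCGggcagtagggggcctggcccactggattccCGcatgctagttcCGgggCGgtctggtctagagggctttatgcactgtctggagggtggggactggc
Cubn: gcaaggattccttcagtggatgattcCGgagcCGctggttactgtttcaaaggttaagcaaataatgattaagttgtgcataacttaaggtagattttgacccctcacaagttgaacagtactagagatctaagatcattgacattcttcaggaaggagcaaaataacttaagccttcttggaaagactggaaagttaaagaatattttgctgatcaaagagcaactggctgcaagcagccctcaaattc
Amn: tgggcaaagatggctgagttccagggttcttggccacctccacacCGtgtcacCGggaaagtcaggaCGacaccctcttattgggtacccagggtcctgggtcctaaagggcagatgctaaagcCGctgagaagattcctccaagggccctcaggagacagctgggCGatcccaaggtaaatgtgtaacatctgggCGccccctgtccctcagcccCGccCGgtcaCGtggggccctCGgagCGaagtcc
Clcn5: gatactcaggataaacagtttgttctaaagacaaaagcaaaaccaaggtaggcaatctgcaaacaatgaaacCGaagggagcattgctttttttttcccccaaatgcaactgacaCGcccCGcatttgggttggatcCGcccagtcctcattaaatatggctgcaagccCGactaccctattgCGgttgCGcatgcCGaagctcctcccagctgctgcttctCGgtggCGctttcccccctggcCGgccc
The Lrp2 stretch of 214 bases had a GC content of 65.9% and 13 CpG, while the 250 bases before Cubn had 39.6% and 2 CpG. Amn had 61.2% and 11 CpG and Clcn5 had 52.4% and 11 CpG. Over 32851 mouse promoters of 250 bases, not cut in this way, the median was 52.4% GC and 6 CpG, so the pair of receptor genes lay on opposite sides of it. A promoter entry was found for 6 of the 6 genes, with 8 start sites in all. Both strands of each were searched for 4 motifs. An HNF1 site core, GTTAAT, occurred in 6.43% of all promoters. The AP-1 site, TGANTCA, occurred in 6.75% of them. The HNF4 core, CAAAGTCC, occurred in 1.2% of them. A TATA box, TATAAA, occurred in 12.4% of them. None of the 4 occurred in the stretches shown. Ocrl held the HNF4 core once, a Dab2 start inside the gene held the HNF1 core once, and a Clcn5 start inside the gene held the TATA box once.

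Libraries held 14372212 to 17668334 counts. Gstk1, the targeted gene, was at 0.0643 to 1.58 CPM (counts scaled to library size) in KO LPS and 21.2 to 41.8 CPM in WT LPS, and at 2.51 to 3.77 CPM in KO saline and 40.5 to 54.1 CPM in WT saline. Xist had 2 to 10 counts in every LPS library and 11446 to 19041 in every saline library, and the Y-linked Ddx3y had 951 to 2996 counts in LPS libraries and 0 in saline libraries. By these genes the LPS mice were male and the saline mice female, so in every LPS to saline comparison below treatment and sex cannot be told apart. The same holds for the difference of the LPS responses between the genotypes, which is made of these comparisons. The KO LPS libraries stood apart from each other: on the first principal component, with 69.1% of the variance, mouse AKI-156 was at -79.4, close to WT LPS (-110.8 to -94.1), and mice AKI-320 and AKI-381 were at -18.8 and -20.1. Summed over 18 proximal tubule markers, levels were 3870 to 5500 CPM in KO LPS and 4200 to 6860 CPM in WT LPS, against 15800 to 16900 CPM in KO saline and 15000 to 16800 CPM in WT saline, and none of the markers was at 0 in any group. In bulk RNA, fewer proximal tubule cells and less of a transcript per cell cannot be told apart.

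In KO kidneys 3 of the 6 genes were lower with LPS than with saline (Lrp2, Cubn and Amn), where 12.9% of all tested genes were lower and 27.6% were called in either direction. In WT kidneys 4 of the 6 were lower with LPS (Lrp2, Cubn, Clcn5 and Ocrl), where 28.6% of all tested genes were lower and 57% were called. None of the 6 was called higher with LPS in either genotype, where 14.7% of all tested genes in KO and 28.4% in WT were. Between KO LPS and WT LPS, 2 of the 6 were higher (Clcn5 and Ocrl) and none lower, where 15% of tested genes were called, 8.74% higher and 6.29% lower. The median log2 fold change of the 6 was -0.52 in KO, -1.28 in WT and 0.48 between KO LPS and WT LPS, beside medians over all tested genes of 0.03, 0 and 0. Calls are at an adjusted p below 0.05 in edgeR's quasi-likelihood test, adjusted over all 15703 genes, and each LPS response has its own saline mice as control.

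With LPS the libraries of KO LPS and KO saline did not overlap for 3 of the 6 genes, all lower (Lrp2, Cubn and Amn), where 45.5% of all tested genes did not overlap, 23.3% higher and 22.3% lower. In WT they did not overlap for 5 of the 6, with Lrp2, Cubn, Clcn5 and Ocrl lower and Dab2 higher, where 59.5% of tested genes did not overlap, 29.1% higher and 30.4% lower. KO LPS and WT LPS did not overlap for Clcn5 alone, higher in KO LPS, where 18.2% did not overlap, 9.21% higher and 8.99% lower. KO saline and WT saline did not overlap for 3 genes, Lrp2 and Clcn5 lower and Ocrl higher in KO, where 19.9% did not overlap, 9.76% higher and 10.1% lower.

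**Figure D1:**
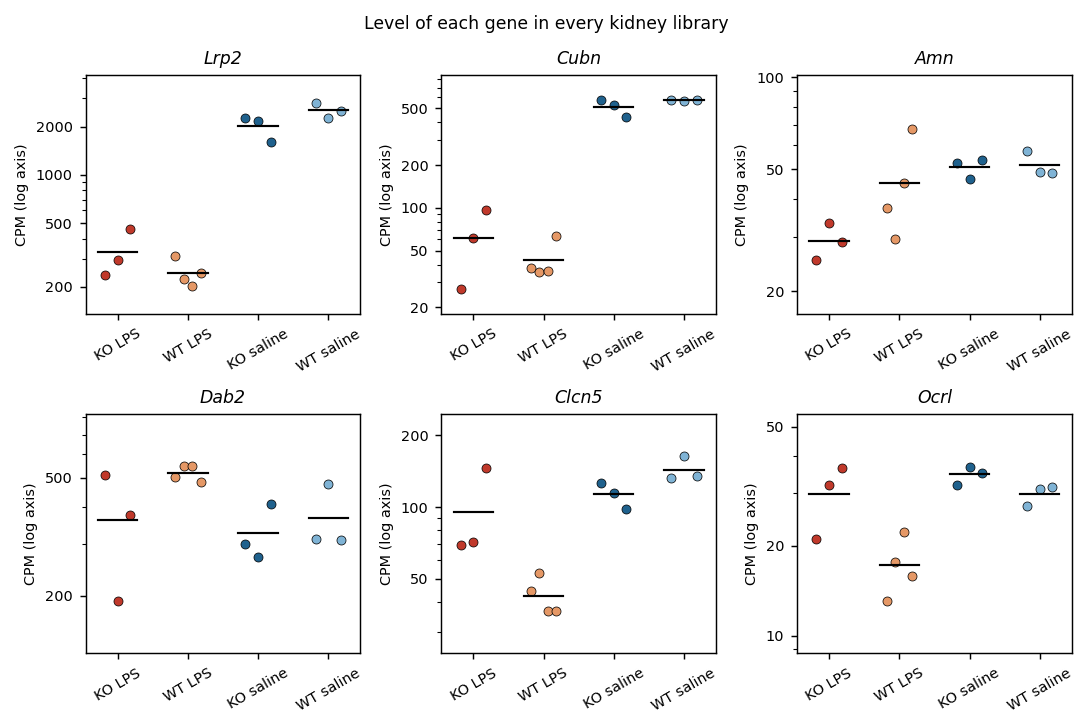
CPM (log axis) of the 6 genes in each of 13 kidney libraries, by group, with the group mean as a line. Lrp2 and Cubn sit far lower in all 7 LPS libraries than in all 6 saline libraries, while Dab2 overlaps between KO LPS and KO saline.

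Lrp2, the megalin gene, had the highest level per gene length of the 6 in saline kidneys and lost most of its reads with LPS. It stood at 236, 295 and 461 CPM in KO LPS and 311, 223, 203 and 243 CPM in WT LPS, against 2260, 2180 and 1610 CPM in KO saline and 2820, 2270 and 2510 CPM in WT saline. No LPS library came near a saline library, and the LPS libraries of the genotypes overlapped. With LPS the level fell 6.09-fold in KO (log2 fold change -2.61 ± 0.26 SE, 95% interval -3.17 to -2.04, edgeR adjusted p = 1.3e-05). In WT it fell 10.3-fold (-3.37 ± 0.24 SE, -3.89 to -2.85, edgeR adjusted p = 3.09e-07). Between KO LPS and WT LPS the log2 difference was 0.43 ± 0.23 SE (-0.06 to 0.93, edgeR adjusted p = 0.213). Scaled by library totals in place of TMM factors it was 0.82 (adjusted p = 0.0208), in a setting that moved the median of all genes by 0.336. The LPS response itself differed between the genotypes by 0.76 ± 0.34 SE (0.03 to 1.49), which had an unadjusted p of 0.0415 and an edgeR adjusted p of 0.207. Under saline, KO libraries were all just below WT libraries, the highest KO library at 2260 CPM and the lowest WT library at 2270 CPM (log2 -0.33 ± 0.25 SE, edgeR adjusted p = 1).

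Cubn, which encodes the peripheral receptor that binds albumin and the intrinsic factor-vitamin B12 complex, fell with LPS by more than megalin did in point estimate. Its levels were 26.9, 61.5 and 96.5 CPM in KO LPS and 37.5, 35.2, 36.1 and 63.2 CPM in WT LPS, against 576, 532 and 432 CPM in KO saline and 573, 564 and 571 CPM in WT saline. The WT saline mice were almost alike, the KO LPS mice spread over the whole range of WT LPS and beyond it at both ends, and no LPS library reached the saline range. The fall was 8.32-fold in KO (log2 -3.06 ± 0.38 SE, -3.86 to -2.25, edgeR adjusted p = 5.86e-05) and 13.2-fold in WT (-3.73 ± 0.34 SE, -4.47 to -2.99, edgeR adjusted p = 1.86e-06). KO LPS and WT LPS differed by 0.52 ± 0.33 SE (-0.18 to 1.22, edgeR adjusted p = 0.288). It depended on KO LPS mouse AKI-156: without it the difference was 0.88 and passed the threshold (adjusted p = 0.018). Under saline the genotypes differed by -0.15 ± 0.35 SE (-0.89 to 0.59).

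Amn encodes the small membrane protein that anchors cubilin, and its level did not follow that of Cubn. It was at 25.3, 33.4 and 29 CPM in KO LPS and 37.5, 29.7, 45 and 68 CPM in WT LPS, against 52.3, 46.7 and 53.7 CPM in KO saline and 57.3, 49.2 and 48.6 CPM in WT saline. All KO LPS libraries lay below all KO saline libraries, whereas WT LPS mouse AKI-319 was above every saline mouse. The fall in KO was 1.74-fold (log2 -0.80 ± 0.24 SE, -1.32 to -0.27, edgeR adjusted p = 0.0264). This call was lost without KO LPS mouse AKI-156 (-0.70, adjusted p = 0.0893), without KO LPS mouse AKI-381 (-0.79, 0.059), without KO saline mouse N1 (-0.78, 0.0727) or mouse N3 (-0.76, 0.0756), and with library totals (-0.62, 0.0915). In WT the change was -0.20 ± 0.23 SE (-0.69 to 0.29, edgeR adjusted p = 0.471), and without WT LPS mouse AKI-319 it was -0.46 and called (adjusted p = 0.0388). KO LPS differed from WT LPS by -0.62 ± 0.23 SE (edgeR adjusted p = 0.0826), which was called without WT LPS mouse AKI-13 (-0.78, 0.0283) and by DESeq2 (-0.65, 0.0428). The log2 ratio of Cubn to Amn shows the unequal change within each library: it averaged 0.90 ± 0.82 in KO LPS and -0.04 ± 0.24 in WT LPS, against 3.33 ± 0.27 in KO saline and 3.47 ± 0.13 in WT saline (SD over 3, 4, 3 and 3 mice). No LPS library overlapped a saline library in this ratio, and the KO LPS and WT LPS libraries overlapped.

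Dab2, the clathrin adaptor of megalin, was the member of the set that stayed at or above its saline level in most LPS libraries. It had 511, 192 and 375 CPM in KO LPS and 503, 548, 548 and 483 CPM in WT LPS, against 299, 271 and 407 CPM in KO saline and 310, 477 and 308 CPM in WT saline. The KO LPS mice straddled the KO saline mice, while all WT LPS mice were above all WT saline mice. Neither response passed the test: 0.14 ± 0.29 SE in KO (-0.49 to 0.77, edgeR adjusted p = 0.766) and 0.51 ± 0.28 SE in WT (-0.08 to 1.11, edgeR adjusted p = 0.129). KO LPS and WT LPS differed by -0.54 ± 0.28 SE (edgeR adjusted p = 0.201), and without KO LPS mouse AKI-156 by -0.88, which was called (adjusted p = 0.0317). Without that mouse the KO response was -0.20. Dab2 is also transcribed in macrophages, and the summed level of 10 macrophage markers was 297 to 803 CPM in KO LPS and 1000 to 1710 CPM in WT LPS, against 117 to 124 CPM in KO saline and 95.4 to 112 CPM in WT saline, with none of the 10 at 0 in any group. Cd14 carried most of that sum with LPS, at a mean of 348 CPM in KO LPS and 1260 CPM in WT LPS. By gene, 7 of the 10 were higher in KO LPS than in WT LPS and only Cd14 was lower (log2 -1.86 ± 0.41 SE, edgeR adjusted p = 0.012), which became 5 higher and 0 lower without KO LPS mouse AKI-381. With LPS against saline, 6 were higher and 1 lower in KO and 4 higher and 4 lower in WT, and the KO count of higher genes was 4 without KO LPS mouse AKI-320 or any 1 KO saline mouse. Fibroblast markers (6 genes) summed to 483 to 687 CPM in KO LPS and 387 to 711 CPM in WT LPS, against 103 to 146 CPM in KO saline and 160 to 185 CPM in WT saline. Dcn carried most of the WT LPS sum, at a mean of 409 CPM (251 CPM in KO LPS), and 4 of the 6 were higher and 0 lower in KO LPS than in WT LPS, among them Col1a1 (3.03 ± 0.43 SE, edgeR adjusted p = 0.00301). The count of higher genes was 3 without any 1 library other than KO LPS mouse AKI-156 or WT LPS mouse AKI-317. With LPS against saline, 5 of the 6 were higher and 0 lower in KO, and 1 was higher and 1 lower in WT. The lower call in WT was lost without any 1 saline mouse, KO LPS mouse AKI-320, or WT LPS mouse AKI-13 or AKI-319. The higher count in WT was 2 without WT LPS mouse AKI-12, AKI-317 or AKI-319. The part of these cells in the Dab2 level was not tested.

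Clcn5, the endosomal chloride/proton exchanger, gave the clearest difference between the genotypes under LPS. Its levels were 69.1, 71.3 and 146 CPM in KO LPS and 44.3, 52.7, 36.5 and 36.6 CPM in WT LPS, against 126, 115 and 98.5 CPM in KO saline and 132, 164 and 135 CPM in WT saline. All KO LPS libraries were above all WT LPS libraries. KO LPS mouse AKI-381 was above every KO saline mouse, and the other two KO LPS mice were below them. Clcn5 was 2.25-fold higher in KO LPS than in WT LPS (log2 1.17 ± 0.24 SE, 0.65 to 1.69, edgeR adjusted p = 0.00932). Leaving out 1 library at a time gave 0.74 to 1.36, all called, the lowest without KO LPS mouse AKI-381 (adjusted p = 0.049). When the fit held only the KO LPS and WT LPS libraries the value was 1.19 and did not pass (adjusted p = 0.0679).

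In WT, Clcn5 fell 3.39-fold with LPS (log2 -1.76 ± 0.24 SE, -2.28 to -1.23, edgeR adjusted p = 4.82e-05). In KO the change was -0.24 ± 0.26 SE (-0.80 to 0.32, edgeR adjusted p = 0.533), and without mouse AKI-381 it was -0.68 and called (adjusted p = 0.0239). The difference of the LPS responses, KO minus WT, was 1.52 ± 0.36 SE (0.75 to 2.28, edgeR adjusted p = 0.0475), and Clcn5 was the only one of the 6 called in this test, where 2.1% of all genes were called and 1.36% were higher. That call was at the edge of the threshold. It was lost in limma-voom (1.44, adjusted p = 0.066) and on leaving out any of 11 of the 13 libraries, all but KO LPS mouse AKI-156 and WT LPS mouse AKI-13. The estimates over these left-out libraries ran between 1.08 and 1.70, with adjusted p up to 0.129. Between KO LPS and WT LPS, some markers of other cell types were also higher in KO LPS: 4 of 6 endothelial markers (1 lower), among them Tek (1.98 ± 0.25 SE, edgeR adjusted p = 0.00146), and 3 of 8 collecting duct and intercalated cell markers (2 lower), among them Atp6v1b1 (1.75 ± 0.40 SE, edgeR adjusted p = 0.0134), besides the fibroblast and macrophage markers above. With 1 library left out, 3 or 4 endothelial markers were higher, and 1 was lower only without KO LPS mouse AKI-156, WT LPS mouse AKI-12 or WT saline mouse N2. Without KO LPS mouse AKI-320 or AKI-381 the collecting duct and intercalated count was 0 higher and 1 lower. Of the 18 proximal tubule markers 4 were higher and 6 lower (median 0.08), and 1 to 5 higher and 2 to 7 lower when 1 library was left out. Thick limb and distal tubule markers had 2 of 6 higher and 0 lower, and proximal injury markers 0 of 6 higher and 1 lower. The thick limb and distal count was 1 to 3 higher with 1 library left out, and 1 was lower without KO LPS mouse AKI-156. With all libraries, 0 of 6 neutrophil and 0 of 5 podocyte markers were called. Summed endothelial markers were at 458 to 576 CPM in KO LPS and 279 to 412 CPM in WT LPS, against 518 to 564 CPM in KO saline and 487 to 532 CPM in WT saline. The part of these cells in the Clcn5 and Ocrl differences was not tested. Under saline KO was below WT in every library (-0.35 ± 0.26 SE, -0.91 to 0.21, edgeR adjusted p = 1). Clcn5 lies on chromosome X, and the sexes of the LPS and saline mice differed, but by Xist and Ddx3y the KO LPS and WT LPS mice were of the same sex. In the difference of the LPS responses, treatment and sex cannot be told apart.

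Ocrl, the other X-linked gene of the set and a phosphatase of the same endosomes, had 179 to 641 counts per library. It was at 21.1, 31.8 and 36.5 CPM in KO LPS and 13.1, 17.7, 22.2 and 15.8 CPM in WT LPS, against 32, 36.8 and 35.1 CPM in KO saline and 27.1, 30.9 and 31.5 CPM in WT saline. WT LPS libraries were all below WT saline libraries, and KO LPS overlapped both KO saline and WT LPS. In WT it fell 1.74-fold with LPS (log2 -0.80 ± 0.21 SE, -1.24 to -0.35, edgeR adjusted p = 0.0047), and in KO the change was -0.22 ± 0.22 SE (-0.69 to 0.25, edgeR adjusted p = 0.508). It was 1.73-fold higher in KO LPS than in WT LPS (0.79 ± 0.21 SE, 0.35 to 1.23, edgeR adjusted p = 0.0223). This call was lost without KO LPS mouse AKI-320 (0.76, adjusted p = 0.0786), KO LPS mouse AKI-381 (0.63, 0.123) or WT LPS mouse AKI-319 (0.75, 0.0542), and with only the compared groups in the fit (0.82, 0.114). The responses differed by 0.58 ± 0.30 SE (edgeR adjusted p = 0.272). Under saline all KO libraries were above all WT libraries (0.21 ± 0.22 SE, -0.26 to 0.68, edgeR adjusted p = 1).

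**Figure D2:**
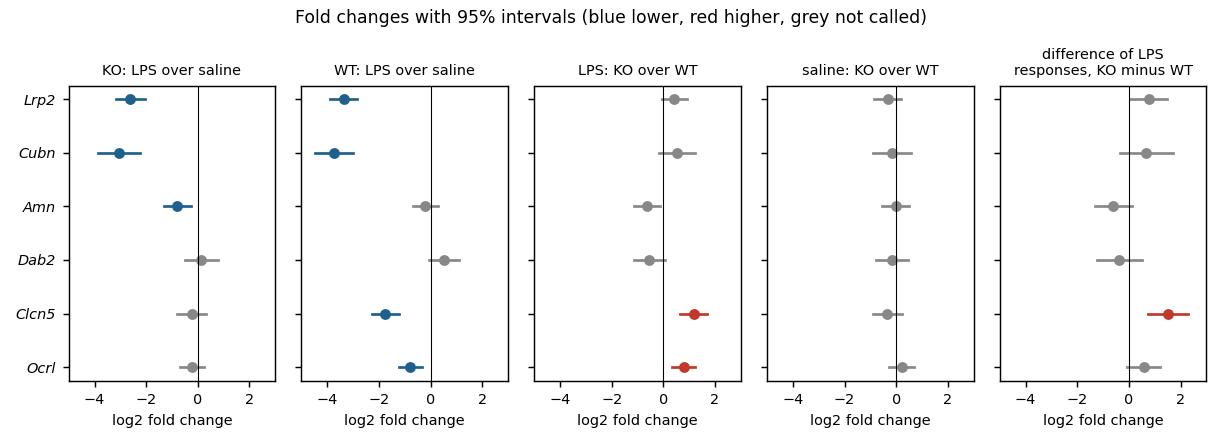
Log2 fold changes of the 6 genes in 5 comparisons from the fit of 13 libraries, with 95% intervals; blue marks genes called lower, red higher and grey not called at an adjusted p below 0.05. Lrp2 and Cubn lie below -2.5 in both LPS comparisons, Clcn5 and Ocrl are higher in KO LPS than in WT LPS, and no gene is called under saline.

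Under saline, 0 of the 6 genes was called between KO and WT, where 0.0191% of all genes (3) were, 0.00637% higher and 0.0127% lower. None had an unadjusted p under 0.05 in edgeR either, the lowest being 0.203, and DESeq2 and limma-voom also called 0. The largest differences were those of Clcn5 and Lrp2, both lower in KO, whose intervals reach -0.91 and -0.86 on the log2 scale.

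Per gene length, the order of the 6 transcripts differed between treatments. Deposited FPKM, which are counts per length of the gene model scaled to the library total, put Lrp2 first in WT saline at 149 ± 14.6, followed by Cubn at 36.7 ± 0.135, Amn at 31.4 ± 2.68, Dab2 at 29.1 ± 8.05, Clcn5 at 11.3 ± 1.49 and Ocrl at 2.2 ± 0.194 (SD, n = 3). Dab2 ranged over 24.4 to 38.4 FPKM there and so overlapped both Cubn and Amn, while Cubn and Amn themselves did not overlap. KO saline kept the same order of means, with 116 ± 20.1 for Lrp2, 32.5 ± 4.63 for Cubn, 30.4 ± 2.47 for Amn, 25.5 ± 5.77 for Dab2, 8.7 ± 1.06 for Clcn5 and 2.5 ± 0.16 for Ocrl (SD, n = 3), where the ranges of Cubn, Amn and Dab2 overlapped.

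With LPS, Dab2 had the highest mean FPKM in both genotypes. In KO LPS the means were 30.9 ± 11.8 for Dab2, 21.8 ± 9.03 for Lrp2, 19.8 ± 4.18 for Amn, 8.38 ± 4.32 for Clcn5, 4.52 ± 2.76 for Cubn and 2.46 ± 0.821 for Ocrl (SD, n = 3). The ranges of Dab2, Lrp2 and Amn overlapped in KO LPS, as did those of Clcn5 and Cubn and those of Cubn and Ocrl. In WT LPS they were 36.4 ± 5.76 for Dab2, 23.9 ± 8.88 for Amn, 12.4 ± 0.948 for Lrp2, 2.9 ± 0.598 for Clcn5, 2.41 ± 0.736 for Cubn and 1.12 ± 0.361 for Ocrl (SD, n = 4). Here Lrp2 was below every Amn value, Dab2 and Amn overlapped, and Clcn5 and Cubn overlapped.

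**Figure D3:**
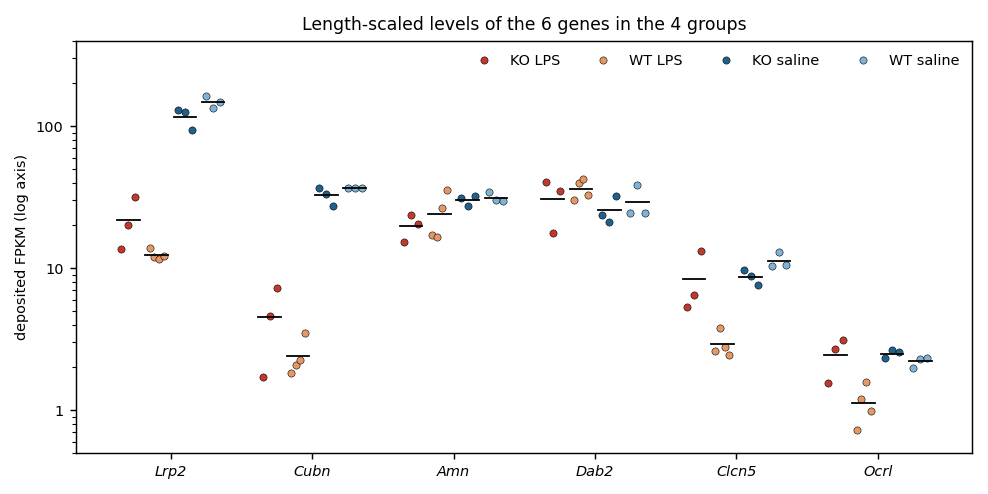
Deposited FPKM (log axis) of each gene in each library, by group, with the mean as a line. Lrp2 tops the set in saline kidneys (149 in WT saline) and Dab2 has the highest mean in LPS kidneys (36.4 in WT LPS).

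Most proximal tubule markers fell with LPS too, so each gene was also set against them within each library. Of 18 markers, 15 were lower and 0 higher in KO, and 15 were lower and 1 higher in WT, with median log2 fold changes of -1.67 in KO and -1.58 in WT. Without WT LPS mouse AKI-12, 1 was higher in KO. Among them Slc22a8, an organic anion transporter, changed by -3.81 ± 0.35 SE in KO (edgeR adjusted p = 6.89e-06) and -2.77 ± 0.30 SE in WT (edgeR adjusted p = 6.39e-06). Gatm, an enzyme of creatine synthesis, changed by -3.05 ± 0.32 SE in KO and -5.35 ± 0.31 SE in WT (edgeR adjusted p = 1.65e-05 and 7.41e-08). Markers of proximal tubule injury (6 genes, among them Havcr1 and Spp1) were all higher with LPS in both genotypes, with medians of 5.03 in KO and 5.34 in WT. Markers of other nephron segments also fell: 6 of 6 thick limb and distal tubule markers in KO and 5 of 6 in WT (medians -1.98 and -2.66), and 8 of 8 collecting duct and intercalated cell markers in KO and 6 of 8 in WT (medians -1.49 and -1.63). The distal count in KO was 4 without KO LPS mouse AKI-156 or AKI-320 or KO saline mouse N1 or N2.

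Relative to the geometric mean of the 18 markers, Lrp2 had a log2 ratio of 1.81 ± 0.26 in KO LPS and 1.32 ± 0.22 in WT LPS, against 2.29 ± 0.20 in KO saline and 2.55 ± 0.13 in WT saline (SD over 3, 4, 3 and 3 mice). The WT LPS libraries lay below all WT saline libraries, and the KO LPS libraries overlapped KO saline. Against the summed CPM of the markers instead, the KO difference for Lrp2 was -0.87, without overlap. Cubn had ratios of -0.74 ± 0.61 in KO LPS and -1.22 ± 0.30 in WT LPS, against 0.32 ± 0.14 in KO saline and 0.40 ± 0.05 in WT saline, and did not overlap between LPS and saline in either genotype. The difference of the mean ratio, LPS minus saline, was -1.06 in KO and -1.62 in WT for Cubn and -0.48 in KO and -1.23 in WT for Lrp2.

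The other 4 genes were higher relative to the same markers with LPS. The markers themselves fell (medians of -1.67 in KO and -1.58 in WT), so an unchanged gene would also be higher in this ratio. How many of all tested genes rose or did not overlap in it was not computed. The difference of the mean ratio, LPS minus saline, was 1.36 in KO and 1.89 in WT for Amn, 2.22 and 2.70 for Dab2, 1.84 and 0.38 for Clcn5 and 1.92 and 1.33 for Ocrl, and LPS and saline libraries did not overlap except for Clcn5 in WT. Clcn5 stood at -0.02 ± 0.46 in KO LPS and -1.20 ± 0.49 in WT LPS, against -1.86 ± 0.10 in KO saline and -1.59 ± 0.19 in WT saline. KO LPS and WT LPS did not overlap in the Clcn5 ratio, nor in those of Lrp2 and Ocrl. All were higher in KO LPS, by 1.19 for Clcn5, 0.49 for Lrp2 and 0.88 for Ocrl. KO saline and WT saline did not overlap in the Clcn5 ratio either, with KO lower (-0.27). Against the summed CPM of the markers instead, the WT difference for Clcn5 was -0.17, below 0, so its direction there depends on how the markers are averaged.

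**Figure D4:**
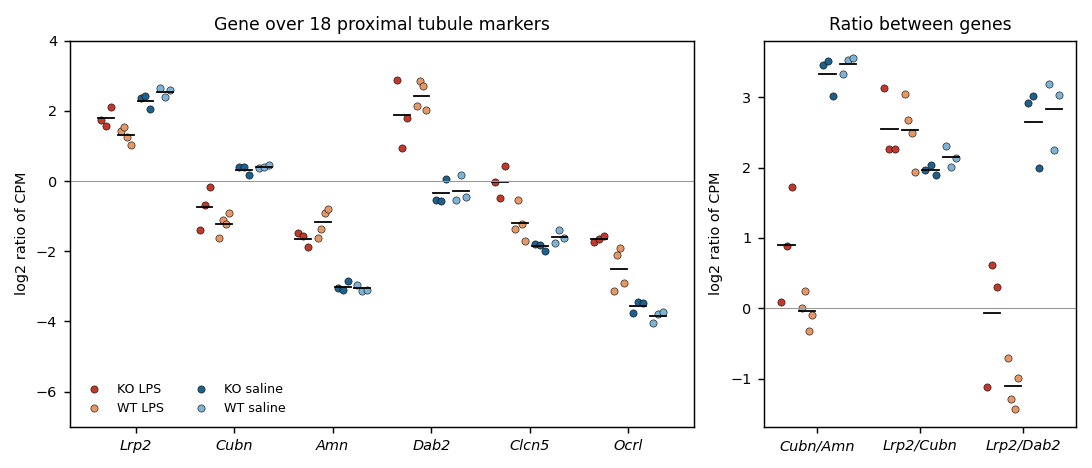
Left, log2 ratio of the CPM of each gene to the geometric mean of 18 proximal tubule markers in each library; right, log2 ratios between genes of the set; lines are group means. Cubn is lower with LPS in both genotypes and Amn, Dab2 and Ocrl are higher, Lrp2 overlaps between KO LPS and KO saline and Clcn5 between WT LPS and WT saline, and Cubn over Amn drops to a mean of -0.04 in WT LPS, against 3.47 in WT saline. Most markers themselves fall with LPS, so an unchanged gene would also be higher on the left.

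The wider machinery that carries megalin and its cargo was read from 77 genes. They encode clathrin and adaptors, endosomal Rab and phosphoinositide proteins, the vacuolar proton pump and lysosomal proteins. Of these, 5 were higher and 9 lower with LPS in KO, with a median log2 fold change of 0.03. In WT 26 were higher and 15 lower, with a median of 0.22. Over all tested genes, 14.7% were higher and 12.9% lower in KO, and 28.4% higher and 28.6% lower in WT. With library totals the list counts were 11 higher and 6 lower in KO and 13 higher and 19 lower in WT. The balance of the list thus turns with the scaling in both genotypes. Without WT saline mouse N1, N2 or N3 the higher count in WT was 14, 16 or 15, and without KO saline mouse N1, N2 or N3 the KO counts were 2 higher and 6 lower, 2 and 7, or 3 and 6. Between KO LPS and WT LPS 3 were higher and 5 lower, where 8.74% of all tested genes were higher and 6.29% lower. Leaving out any library other than WT LPS mouse AKI-13 moved that count in a direction by over 1.5 times, to none called without KO LPS mouse AKI-381 and to 8 higher and 8 lower without KO LPS mouse AKI-156, and library totals gave 9 higher and 0 lower. No gene of the list was called under saline or in the difference of responses. The same shares of all tested genes stand beside the counts of each list that follows.

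On the log2 fold change scale used for the genes that follow, with LPS over saline unless named otherwise, changes are given with their SE. Lrpap1, the chaperone that escorts megalin through the endoplasmic reticulum, fell with its receptor in both genotypes. It was at 127, 126 and 136 CPM in KO LPS and 158, 137, 152 and 196 CPM in WT LPS, against 327, 358 and 303 CPM in KO saline and 339, 264 and 260 CPM in WT saline. LPS and saline libraries did not overlap. The log2 fold change was -1.35 ± 0.17 SE in KO (edgeR adjusted p = 7.54e-05) and -0.84 ± 0.16 SE in WT (edgeR adjusted p = 0.000494). Myo6, the motor that moves endocytic vesicles away from the brush border, fell in WT (-1.20 ± 0.24 SE, edgeR adjusted p = 0.000787), and in KO its change was -0.32 ± 0.26 SE. Gipc1, which joins megalin to Myo6, rose by 0.73 ± 0.20 SE in KO (edgeR adjusted p = 0.0169) and 1.46 ± 0.20 SE in WT (edgeR adjusted p = 3.93e-05). The KO call was lost without KO saline mouse N1 or N2 (adjusted p = 0.0635 and 0.0574).

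Further along the route, Rab5a, a GTPase of early endosomes, was higher in WT LPS than in WT saline (1.02 ± 0.21 SE, edgeR adjusted p = 0.00114), and so was Ehd1, which serves recycling from endosomes (1.15 ± 0.17 SE, edgeR adjusted p = 8.62e-05). Their changes in KO were 0.37 ± 0.22 SE and 0.37 ± 0.18 SE. Appl2, an adaptor of early endosomes, fell in both genotypes, with log2 fold changes of -0.76 in KO and -0.74 in WT. Atp6v1a, the catalytic subunit of the proton pump, fell, with log2 fold changes of -0.94 in KO and -0.81 in WT (edgeR adjusted p = 0.00836 and 0.0054). Ctsl, a lysosomal protease, rose: it was at 4780, 1280 and 1990 CPM in KO LPS and 6690, 5650, 4870 and 3190 CPM in WT LPS, against 544 to 564 CPM in KO saline and 471 to 534 CPM in WT saline. Lipa, the lysosomal acid lipase, fell, with log2 fold changes of -1.75 in KO and -2.88 in WT (edgeR adjusted p = 0.000342 and 1.32e-06).

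**Figure D5:**
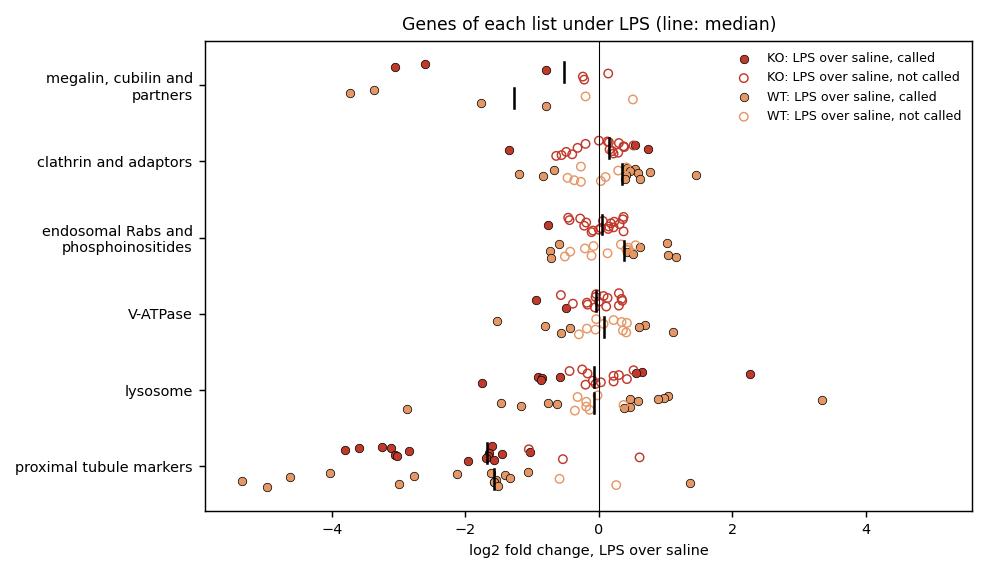
Log2 fold changes, LPS over saline, of the 6 genes and of the genes of 5 lists in KO (upper row of each pair) and WT (lower row); filled points are called, and lines mark medians. Genes of the clathrin, endosome, pump and lysosome lists spread on both sides of 0, while the proximal tubule markers have medians of -1.67 in KO and -1.58 in WT.

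Among 19 tested ligands of megalin and cubilin, as transcribed in the kidney itself, 9 were higher and 7 lower with LPS in KO, and 11 were higher and 5 lower in WT. Lcn2, an iron-siderophore carrier taken up by megalin, rose by 9.48 ± 0.46 SE in KO and 9.72 ± 0.46 SE in WT (edgeR adjusted p = 6.33e-08 and 1.65e-08), and B2m, the light chain of MHC class I, rose by 2.46 ± 0.21 SE and 3.00 ± 0.21 SE (edgeR adjusted p = 3.87e-06 and 2.37e-07). Apom, an apolipoprotein, fell, with log2 fold changes of -2.33 in KO and -1.66 in WT. Ttr, the thyroxine carrier transthyretin, was lower with LPS in KO (-1.21 ± 0.35 SE, edgeR adjusted p = 0.0207) and higher in WT (1.26 ± 0.34 SE, edgeR adjusted p = 0.00575). Between KO LPS and WT LPS 1 ligand was higher and 4 lower. That count was 2 higher and 5 lower without KO LPS mouse AKI-156, 1 and 1 without mouse AKI-320, 0 and 0 without mouse AKI-381, and 2 and 3 without WT saline mouse N2.

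Among the 12 other tested receptors of the LDL receptor family, 2 were higher and 1 lower with LPS in KO, and 4 were higher and 6 lower in WT. Of all tested genes 27.6% were called in KO and 57% in WT. Lrp1, a scavenging relative of megalin found on many cell types, rose by 2.0 ± 0.22 SE in KO and 1.09 ± 0.21 SE in WT (edgeR adjusted p = 3.06e-05 and 0.000608), the opposite direction to Lrp2. Lrp8, the apolipoprotein E receptor, rose by 1.58 ± 0.27 SE and 2.24 ± 0.27 SE (edgeR adjusted p = 0.0007 and 1.35e-05). Without KO LPS mouse AKI-381 the KO count was 2 higher and 3 lower, and with library totals it was 3 and 0.

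Of 10 other chloride channel, exchanger and subunit genes of the Clcn5 family, 4 were lower and 0 higher with LPS in KO and 5 were lower and 1 higher in WT. Bsnd, an accessory subunit of chloride channels, changed by -1.78 ± 0.39 SE in KO and -4.04 ± 0.40 SE in WT. Like Clcn5, Bsnd was higher in KO LPS than in WT LPS (2.38 ± 0.38 SE, edgeR adjusted p = 0.00393). With only the compared groups in the fit that call was lost (adjusted p = 0.0531). In all, 3 of the 10 were higher in KO LPS and 0 lower, which became 5 without KO LPS mouse AKI-156 and 1 without mouse AKI-320 or mouse AKI-381. The single higher gene in WT was not called without WT LPS mouse AKI-13 or WT saline mouse N1 or N3, with 7, 4 and 4 lower.

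Of the 10 other inositol polyphosphate phosphatases related to OCRL, 1 was lower and 0 higher with LPS in KO, and 3 were lower and 1 higher in WT. The share of all tested genes called was 27.6% in KO and 57% in WT. Without WT LPS mouse AKI-12 the KO count was 2 lower. The single higher gene in WT was not called on leaving out any of 9 libraries: WT LPS mouse AKI-12, AKI-13 or AKI-319 or any of the 6 saline mice. Inpp5k changed by -0.74 in KO (edgeR adjusted p = 0.00161) and -0.38 ± 0.13 SE in WT (edgeR adjusted p = 0.0248). The WT call was lost without WT LPS mouse AKI-317 (adjusted p = 0.0502) or WT saline mouse N2 or N3 (0.0812 and 0.092) and with no filter on low counts (0.0688). Inpp5j changed by -1.96 ± 0.42 SE in WT (edgeR adjusted p = 0.00144) and -0.89 ± 0.45 SE in KO. None was called between KO LPS and WT LPS, where 2 were higher without KO LPS mouse AKI-156.

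Of 11 genes that handle vitamins taken up by the receptors, 5 were lower and 1 higher with LPS in KO and 6 were lower and 0 higher in WT, where 1 was higher without KO LPS mouse AKI-381 or WT saline mouse N3. Folr1, a folate receptor, fell, with log2 fold changes of -1.86 in KO and -1.79 in WT (edgeR adjusted p = 0.000128 and 2.53e-05), and Vdr, the vitamin D receptor, fell, with log2 fold changes of -1.18 in KO and -1.37 in WT (edgeR adjusted p = 0.00155 and 9.08e-05). Cyp27b1, which makes the active form of vitamin D from the precursor that megalin retrieves, was at 30.8, 38 and 262 CPM in KO LPS and 6.08, 16.2, 12.4 and 7.21 CPM in WT LPS, against 10.4, 6.5 and 10.7 CPM in KO saline and 4.56, 5.89 and 1.62 CPM in WT saline. All KO LPS libraries were above all others, with mouse AKI-381 far above the rest. It rose with LPS in KO (3.59 ± 0.74 SE, edgeR adjusted p = 0.00274), its change in WT was 1.37 ± 0.69 SE (edgeR adjusted p = 0.105), and it was higher in KO LPS than in WT LPS (3.4 ± 0.66 SE, edgeR adjusted p = 0.00695). Without mouse AKI-381 that difference was 1.72 (adjusted p = 0.0493), and with only the compared groups in the fit it did not pass (adjusted p = 0.0532). The difference of the responses, 2.21 ± 0.96 SE, did not pass (edgeR adjusted p = 0.197).

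Of 9 tested transcription factors of tubule genes, 4 were lower and 0 higher with LPS in KO and 4 were lower and 2 higher in WT. Hnf4a, a nuclear receptor of proximal tubule identity, was at 207, 310 and 419 CPM in KO LPS and 298, 235, 225 and 219 CPM in WT LPS, against 669 to 673 CPM in KO saline and 627 to 693 CPM in WT saline. Its log2 fold change was -1.11 in KO (edgeR adjusted p = 0.00213) and -1.45 in WT (edgeR adjusted p = 5.11e-05). Maf, a factor of the same epithelium, fell, with log2 fold changes of -0.96 in KO and -1.54 in WT (edgeR adjusted p = 0.000714 and 2.86e-06). The higher count in WT was 1 without KO LPS mouse AKI-381, WT LPS mouse AKI-12 or AKI-13, or any saline mouse.

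Profiles over the 13 libraries were compared as log2 CPM centred on the mean of each gene, and distance was the root mean square difference over libraries, among 11404 genes with a mean of at least 5 CPM. All of these values carry the contrast of LPS to saline and are a description. Lrp2 and Cubn were the closest pair of the 6 at 0.39, followed by Clcn5 and Ocrl at 0.46, and Cubn and Dab2 were the farthest at 2.07. Cubn was 1.59 from its partner Amn, and Lrp2 was 1.80 from its adaptor Dab2. Nearest to Lrp2 among all genes were Lyplal1 (0.25), Mgat3 (0.26), Pcsk6 (0.28) and Acaa2 (0.30), where the median over all genes was 1.60. Nearest to Cubn were B3gat2 (0.30), Sema4g (0.34), Lyplal1 (0.35) and Acsm5 (0.37), with a median of 1.86. Amn was nearest to Akr1a1 (0.12) and Ndufa10 (0.13), with a median of 0.61. Dab2 was nearest to Ncoa5, Rnf149 and Cep170b (0.25 each), with a median of 0.60. Clcn5 was nearest to Heatr5b (0.17) and Atp2b4 (0.18), with a median of 0.86, and Ocrl to Fads1 (0.11) and Tmem129 (0.13), with a median of 0.64.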

How the data were processed

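Whole kidney RNA of 13 mice was sequenced, 1 library per mouse. The authors deposited 1 table with a raw count and an FPKM per gene and library, per the file headers, and 0 other columns of per-sample values. Per the submitters' processing notes, HISAT2, TopHat, TopHat2 2.0.9 and edgeR were used, and the build named is the human hg38, while the identifiers are mouse Ensembl genes whose coordinates were read as GRCm38. The counter and the strand setting are not given in the sources used here. The deposited FPKM scale with the library total and served only to order levels.

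The deposited counts were fitted without change by edgeR 4.0.16 under R 4.3.3 (filterByExpr with a minimum count of 10, TMM factors of 0.7724 to 1.193, a quasi-likelihood fit of 4 group means over 13 libraries, Benjamini-Hochberg over 15703 genes, calls at an adjusted p below 0.05). Intervals on fold changes are 95% intervals of the moderated test. Scripts were tested on simulated data. CPM use the TMM factors. Replicates differed by more than counting noise (chi-square per degree of freedom of 12.47 to 121.5). The labels give a number per mouse but not how the mice of a group were housed or treated, so p-values measure only the spread between these samples. Alternatives were other scalings and filters, DESeq2 1.42.0, limma-voom (limma 3.58.1), fits of only the groups compared and leaving out each library.

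The genes and lists were chosen with earlier results of these data known. Named from each list were up to 4 called genes with the smallest p in a comparison, or up to 2 with the highest mean CPM where none was called, and the text gives examples of them. Promoters are from RefSeq (GRCm38.p6) and gene positions from the deposited gene models. Strands, gene types and overlapping genes are from GENCODE M21. Results of some genes of the lists are not reported here.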

Additional observations from a re-analysis of the deposited data

Results flagged for a closer look

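In WT LPS, Cubn in mouse AKI-319 was at 63.2 CPM, far from the other 3 mice at 35.2 to 37.5 CPM relative to the range of the group. Chance alone marks about 1 in 20 groups in this way. Groups of 3 mice were not screened, so WT LPS was the only group that this rule could mark. The LPS response of Clcn5 differed between KO and WT by 1.52 on the log2 scale in edgeR's interaction test, a call lost on leaving out any of 11 of the 13 libraries. The same test set apart Ttr (-2.47), Bsnd (2.26) and Gatm (2.30), among the ligand, chloride channel and proximal tubule marker genes. Treatment and sex cannot be told apart in it. The Ttr call was lost on leaving out any of 9 libraries, the Bsnd call on leaving out any of 11 and the Gatm call on leaving out any of 7, each time including KO LPS mouse AKI-320 and mouse AKI-381.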

How the results depend on the processing

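Calls of Lrp2 and Cubn with LPS held in both genotypes in 21 of 21 alternatives, between -2.92 and -2.41 for Lrp2 and -3.53 and -2.70 for Cubn in KO and between -3.59 and -3.29 and -3.97 and -3.64 in WT, as did the WT calls of Clcn5 (-1.96 to -1.65) and Ocrl (-0.97 to -0.69). Between KO LPS and WT LPS, 0 of the 6 genes were called when only those groups entered the fit, against 2. Leaving out 1 library at a time gave 1 to 4, with 4 without KO LPS mouse AKI-156 (Cubn, Clcn5 and Ocrl higher, Dab2 lower). For the difference of the responses limma-voom called 0 of the 6 and leaving out 1 library 0 to 1, against 1. The counts were 2 to 3 for KO LPS against KO saline, 4 to 5 for WT LPS against WT saline and 0 to 0 under saline. In all, 3 uncalled values changed sign when 1 library was left out: Dab2 with LPS in KO ranged from -0.20 to 0.45, and under saline Amn ranged from -0.07 to 0.06 and Dab2 from -0.36 to 0.07. Library totals in place of TMM factors turned the share of higher genes among all calls to 70.1% (53.3% with TMM) in KO, 40.3% (49.8%) in WT, 87.4% (58.2%) between KO LPS and WT LPS and 89.5% (64.5%) for the difference of responses, and shifted the median of all genes by 0.193, -0.2, 0.336 and 0.369 in the same order. Of 106 other gene and comparison pairs named by the rule, 69 kept their call in every alternative and 0 changed sign. All of those 69 were LPS to saline comparisons. No named pair between KO LPS and WT LPS, or for the difference of the responses, kept its call in every alternative. Saline mice of KO and WT share the numbers N1 to N3, but same-numbered mice did not deviate together (correlations of 0.018, -0.05 and -0.03), so the numbers were not taken as pairs; with the replicate block 0 of the 6 genes were called, and Lrp2 was at -0.34 and Clcn5 at -0.35. Ocrl had 179 to 641 counts a library, and the SD of its CPM between mice was 26.4% of the mean in KO LPS and 22.2% in WT LPS.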
